A study of Mus musculus with 5 samples.

Results

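Ribosome biogenesis and nucleolar genes were described in hematopoietic stem cells (HSCs) with and without SYNCRIP, an RNA-binding protein. A list of 42 genes was read by symbol from a bulk RNA-seq table of 24046 gene symbols, and all 42 passed the filter on low values. The list holds the rRNA precursor transcript Rn45s, the transcription factor gene Myc, and genes for RNA polymerase I, nucleolar organisation, snoRNPs and assembly of both ribosomal subunits. The rule names the genes by symbol.

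The 5 libraries came from cells sorted as CD45.2+, Lin-, Sca1+, cKit+, CD150+ and CD48- from bone marrow. The 3 WT libraries (WT 1, WT 2 and WT 3) were Syncrip flox/flox, Mx1 Cre-, and the 2 KO libraries (KO 2 and KO 3) were Syncrip flox/flox, Mx1 Cre+. Both groups carried the floxed alleles, had been transplanted as whole marrow into congenic CD45.1 mice 9 weeks before harvest, and had received pIpC 3 weeks before harvest. The Mx1 promoter is interferon-inducible and is not limited to HSCs, so in KO recipients every donor-derived blood lineage could have recombined, and pIpC itself induces interferon in both groups. The donors were young adults and the recipients lethally irradiated per the study's methods. The study's methods state in general that experiments had biological replicates, but the labels do not say whether these libraries came from separate animals. The p-values therefore measure the spread between these samples, which may be technical.

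Ribosomes are made in the nucleolus, where RNA polymerase I transcribes a long precursor of the ribosomal RNAs. Small nucleolar RNPs guide chemical modification of that RNA, and a large set of assembly factors cleaves and folds it together with ribosomal proteins into the small and the large subunit. MYC is known as an activator of many of these genes, and HSCs are known for a low rate of protein synthesis compared with their progeny.

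The libraries held 12539599 reads in KO 3, 18308876 in KO 2 and 21748781 to 22779536 in WT, so both KO libraries were the shallower ones. Even so, the lowest count of any member in any library was 225 reads (Utp14a). Syncrip had 1440 to 1944 normalized reads in WT and 294 to 343 in KO, a log2 fold change of -2.43 (SE 0.22) with a limma adjusted p of 0.0352. Once each library was corrected for transcript length and GC content, as described further on, it was -1.47 (limma adjusted p = 0.14). The data went partly against the labelled gate. Kit (8119 to 10741 normalized reads in WT), Ly6a, Slamf1, Procr, Mecom and Hlf were read in every library. Ptprc, the gene of CD45, was too, but at 3735 to 4635 in WT and at 2010 in KO 2 and 1271 in KO 3 it was lower in both KO libraries. Also read in every library were Cd48 (601 to 768 in WT, 459 in KO 2 and 191 in KO 3) and Itgam (7074 to 11353 in WT, 5158 in KO 2 and 2313 in KO 3). The 10 neutrophil and myeloid genes listed took 6.16% to 7.44% of WT reads, 5.46% in KO 2 and 2.64% in KO 3, and 4 of them were lower in both KO libraries than in all WT. Of 20 proliferation genes, 9 were lower in both KO libraries (23.2% of all tested genes were) and 2 higher (23.9%), and their summed share was 0.733% to 0.816% in WT, 0.73% in KO 2 and 0.592% in KO 3. Of 10 adipocyte genes, Ucp1, Cidea and Cox8b were at 0 in all WT libraries, and the list took 0.134% of reads in KO 2 against 0.000471% in KO 3 and 0.000654% to 0.00146% in WT. The 9 erythroid genes took 0.148% to 0.21% of WT reads, 0.168% in KO 2 and 0.118% in KO 3. The 8 B cell genes took at most 0.00402% of any library, with Ms4a1 at 0 in both KO libraries. The part of these other-cell transcripts in the results on ribosome biogenesis genes was not tested, and in bulk samples fewer cells of a type and less RNA per cell cannot be told apart.

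To ask whether the ribosome biogenesis program moved with SYNCRIP loss, the 42 members were read out of a fit over all genes. They showed no common direction. The median log2 fold change, KO minus WT, was 0.04 (0.02 over all 13661 genes tested), with 23 members above 0 and 19 below, from -0.99 for Npm1 to 1.30 for Rn45s. The spread among members was wide (SD 0.52 on the log2 scale; 0.85 over all genes). By library the median member stood 0.04 above the WT mean in KO 2 and 0.02 above it in KO 3. The members other than Rn45s together took 0.67% to 0.74% of the remaining reads in WT, 0.695% in KO 2 and 0.785% in KO 3.

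No member was called by limma at an adjusted p under 0.05, where 0.00732% of all genes were, that is Syncrip alone. The lowest adjusted p of a member was 0.0815, for Rn45s. At an unadjusted p under 0.05 there were 18 of 42 members (42.9%), 11 higher and 7 lower, against a background of 27.8% of genes. edgeR on the recovered reads called 0 members, and only 2 of all 13661 genes tested. DESeq2, the tool the study used, called 11, of which 8 were higher (19% of members; background 9.27%) and 3 lower (7.14%; background 9.46%). The background for DESeq2 is over the 12170 genes to which it gave an adjusted p. With 2 against 3 libraries an exact permutation test of a single gene cannot give a two-sided p below 0.2. Both KO values lay above all WT values for 14 members (33.3%; background 23.9%) and below all WT values for 9 (21.4%; background 23.2%). For lower values the share was thus close to the background.

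Without KO 2, limma called 16 members, with the lone KO 3 assumed to vary as WT did. Of these, 10 were higher (23.8%; background 9.90%) and 6 lower (14.3%; background 12.2%). The log2 fold changes of Rn45s and Npm1 were 1.61 and -1.50 without KO 2, and 1.00 and -0.48 without KO 3. No member was called with both KO libraries in the fit, so the calls without KO 2 rest on KO 3 alone. Whether the lower depth of KO 3 had a part in them was not tested.

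**Figure D1:**
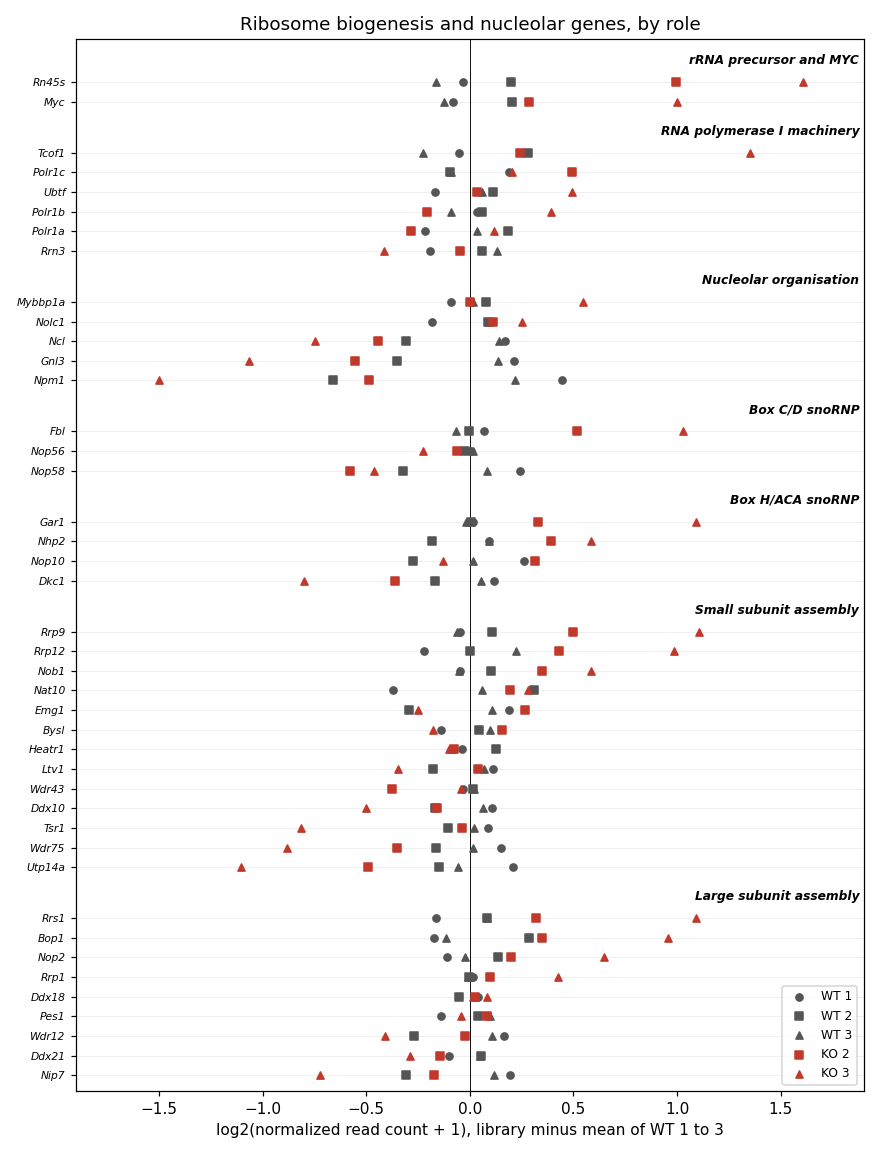
Each of the 42 members by role, with 1 point per library on the log2(normalized read count + 1) scale as the difference from the mean of the 3 WT libraries (WT grey, KO red; circle, square and triangle for library numbers 1, 2 and 3). Rn45s stands farthest to the right and Npm1 farthest to the left, and KO 3 (red triangles) usually lies farther from 0 than KO 2 (red squares).

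Members that were higher in KO differed from those that were lower in the base composition of their transcripts. GC content, the percentage of G and C, was taken from the longest protein-coding transcript of each gene in GENCODE M21 (GRCm38) and was had for 41 members, all but Rn45s. The 13 of these with both KO values above all WT values had 51.6% to 59.8% GC. The 9 with both KO values below had 41% to 50.5% GC, so the ranges did not overlap. Among the 20 members above the members' median GC content of 51.1%, 13 were higher in both KO libraries and 0 lower. Among the 21 at or below it 0 were higher and 9 lower. Over all tested genes, whatever their GC content, 23.9% were higher and 23.2% lower. The shares of all genes within these GC ranges were not computed. Across the 41 members the log2 fold change and GC content had a Pearson's r of 0.89 and a Spearman's rho of 0.91. With the GC content of the coding part alone r was 0.89, and with log2 transcript length -0.28. Over all 13015 tested genes with a GC content r was 0.55 and rho 0.62, so the relation was not particular to the members. The points of such a correlation share the same 5 libraries, and genes are not independent replicates, so no p is given.

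The contrast in composition can be seen in the first 90 coding bases of 4 members, shown as spliced coding sequence from GENCODE M21 with G and C in capitals. Gar1 and Rrp9 were among the higher members and Dkc1 and Gnl3 among the lower ones, and they were chosen after their values were seen.
Gar1: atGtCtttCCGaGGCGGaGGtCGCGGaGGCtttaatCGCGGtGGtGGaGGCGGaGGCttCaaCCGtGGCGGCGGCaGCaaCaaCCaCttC
Rrp9: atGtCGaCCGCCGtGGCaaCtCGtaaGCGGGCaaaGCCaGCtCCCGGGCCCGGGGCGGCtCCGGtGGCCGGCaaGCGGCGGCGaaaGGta
Dkc1: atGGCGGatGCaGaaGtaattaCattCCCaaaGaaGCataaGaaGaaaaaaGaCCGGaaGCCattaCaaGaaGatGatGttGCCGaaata
Gnl3: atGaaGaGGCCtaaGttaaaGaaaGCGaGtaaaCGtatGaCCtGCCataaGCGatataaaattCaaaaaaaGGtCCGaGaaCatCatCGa
These stretches hold 63.3% G and C in Gar1 and 72.2% in Rrp9, but 38.9% in Dkc1 and 37.8% in Gnl3. Over the whole coding part the values were 56.7% for Gar1, 60.6% for Rrp9, 45.2% for Dkc1 and 42.6% for Gnl3.

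The relation differed in size between libraries and was also present among WT libraries. Each additional 10 percentage points of GC content went with a log2 difference of 1.17 in KO 3 and 0.47 in KO 2 relative to the WT mean, over the 41 members. For each WT library against the other WT libraries, WT 2 had a slope of 0.39, WT 1 of -0.27 and WT 3 of -0.13. WT 2 therefore leaned the same way as the KO libraries. Over all tested genes with a GC content the slopes were 0.96 in KO 3, 0.52 in KO 2, 0.26 in WT 2, -0.17 in WT 1 and -0.10 in WT 3. KO 3 had both the steepest slope and the fewest reads.

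**Figure D2:**
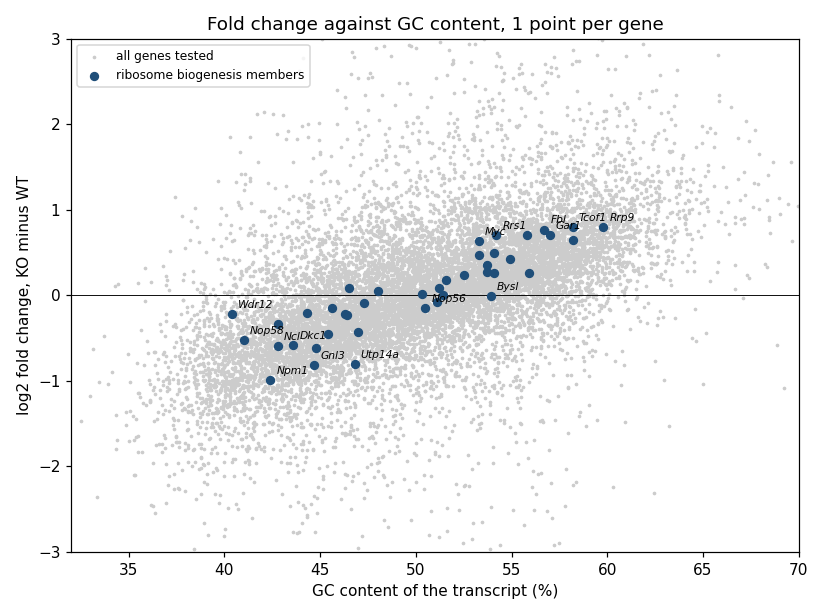
Log2 fold change (KO minus WT) against the GC content of the transcript in percent, with 1 grey point per tested gene and 1 blue point for each of the 41 members with a GC content. The members climb from Npm1 at 42.4% GC to Rrp9 at 59.8% GC with a slope of 0.82 on the log2 scale per 10 percentage points (0.74 over all tested genes), and 122 tested genes fall outside the axes.

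When each library was corrected for a linear trend on log2 transcript length and GC content, the spread among members was smaller. Over the 41 members with a GC content the SD of the log2 fold changes was 0.49 before and 0.23 after (0.84 and 0.70 over all such genes). The log2 fold changes then had a range of -0.53 to 0.48, and 0 members were called, with 4 (9.76%) at an unadjusted p under 0.05 against a background of 16.1%. Both KO values then lay above all WT values for 10 members (background 16.0%) and below for 5 (background 18.2%). Fbl, Nhp2, Nob1 and Rrs1 were higher in both KO libraries before and after the trend was removed (background 10.7%). Gnl3, Nop56, Utp14a and Wdr75 were lower both ways (background 11.7%). The 6 others of the 10, Nop10, Heatr1, Ddx10, Ltv1, Wdr12 and Ddx18, had overlapped before. Rrp1 turned from above all WT values to below them. The direction turned for 11 members, among them Nop58 (-0.52 to 0.13), Wdr43 (-0.21 to 0.23), Ddx10 (-0.33 to 0.23) and Wdr12 (-0.22 to 0.48). The trend was fitted over all tested genes, so it also takes out any difference between the groups that itself followed GC content.

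**Figure D3:**
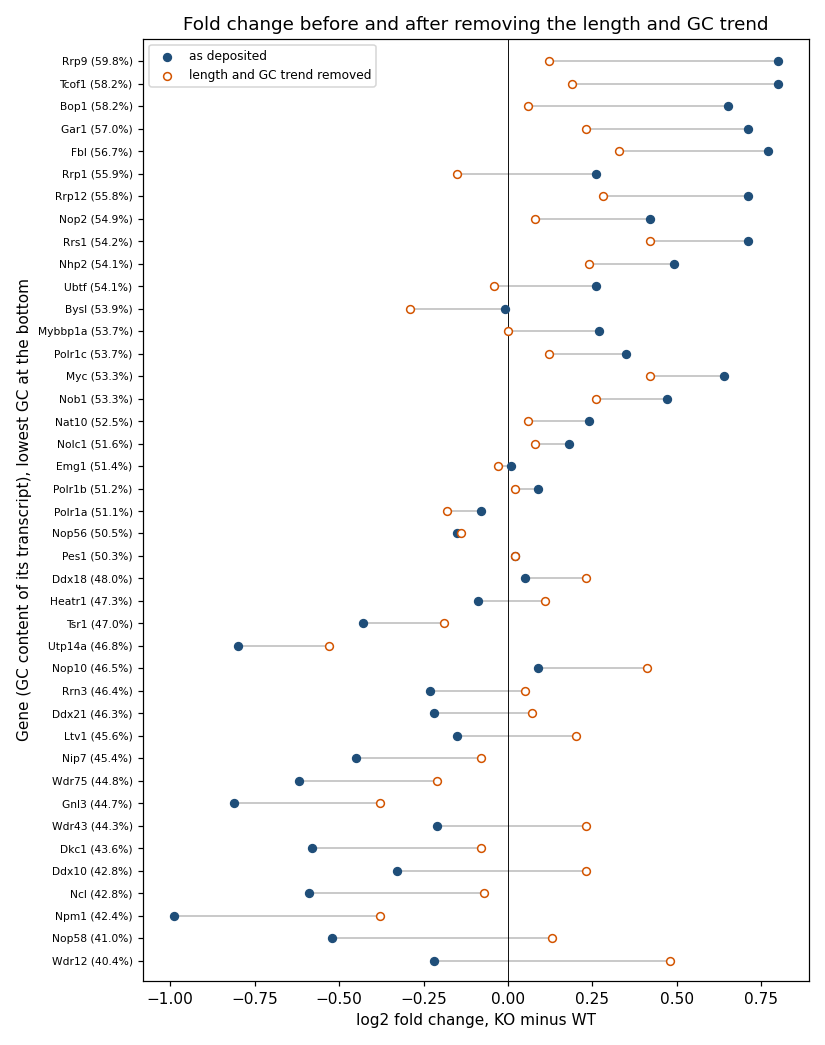
Log2 fold change of each of the 41 members as deposited (filled) and after the length and GC trend had been taken out of every library (open), ordered by the GC content of the transcript given beside the gene. Filled points run from left to right as GC content climbs, whereas open points lie between -0.53 and 0.48 with no such order.

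Among the members, Rn45s, the precursor of the ribosomal RNAs, had the largest log2 fold change as deposited. Without a GC content it could not be corrected for the length and GC trend. WT 1, WT 2 and WT 3 held 127984, 150127 and 117037 normalized reads of it, whereas KO 2 held 261250 and KO 3 held 399426. Both KO libraries were higher than every WT library, with a log2 fold change of 1.30 (SE 0.27, limma adjusted p = 0.0815, DESeq2 adjusted p = 1.5e-05). As a share of all reads it was 0.701% in WT 1 (95% exact binomial interval 0.698% to 0.705%), 0.795% in WT 2 (0.7916% to 0.7991%) and 0.6% in WT 3 (0.5964% to 0.6027%). The share was 1.39% in KO 2 (1.383% to 1.393%) and 2.1% in KO 3 (2.089% to 2.105%), and these intervals cover counting error only. By reads Rn45s ranked 1 among all genes in KO 3, 2 in KO 2, and 4 or 5 in WT. The gene is repeated many times in the genome and the libraries were made with a poly(A)-primed low-input kit, so that its count depends on how repeated reads were assigned and on carried-over rRNA. Whether either differed between libraries was not tested. Myc (chr15:61985391-61990374, plus strand), the gene of a transcription factor that drives growth, had 6577, 8022 and 6388 normalized reads in WT 1, WT 2 and WT 3 and 8489 and 13920 in KO 2 and KO 3. Both KO values lay above WT, KO 2 by little (log2 fold change 0.64, SE 0.24, limma adjusted p = 0.128, DESeq2 adjusted p = 0.048). With the length and GC trend removed the value was 0.42 and the groups overlapped.

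The genes of the RNA polymerase I machinery showed no common shift. Their median log2 fold change was 0.18 (0.03 after correction for length and GC content), and 1 of 6, Polr1c (a subunit shared with RNA polymerase III), had both KO values above WT (0.35, SE 0.21; 0.12 with overlap once the length and GC trend was removed), where 23.9% of all tested genes did. Polr1a and Polr1b, the largest subunits, were at -0.08 (SE 0.22) and 0.09 (SE 0.21). Ubtf, which binds and organises the rRNA gene promoter, was at 0.26 (SE 0.20), and Rrn3, which brings the polymerase to that promoter, at -0.23 (SE 0.21). Tcof1, a nucleolar cofactor of rRNA transcription, had 3004, 3786 and 2659 normalized reads in WT 1, WT 2 and WT 3 and 3683 and 7966 in KO 2 and KO 3. Only KO 3 stood out, since KO 2 lay below WT 2 (log2 fold change 0.80, SE 0.31, limma adjusted p = 0.148, DESeq2 adjusted p = 0.0445). It was at 0.19 with the length and GC trend removed.

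Of the 5 genes of nucleolar organisation, 2 had both KO values below all WT values (23.2% of all tested genes did) and 1 above (23.9%), and their median log2 fold change was -0.59. After correction for length and GC content 1 lay below (background 18.2%) and 0 above (background 16.0%), and the median was -0.07. Ncl (chr1:86344719-86359400), which encodes nucleolin, had 19977 normalized reads in WT 1, 14357 in WT 2 and 19600 in WT 3, and 13082 in KO 2 and 10599 in KO 3. Both KO values were below WT, though KO 2 was near WT 2 (log2 fold change -0.59, SE 0.21, limma adjusted p = 0.121, DESeq2 adjusted p = 0.0438). With the length and GC trend removed the value was -0.07 and the groups overlapped. Npm1, the gene of nucleophosmin, had 9314, 4337 and 7967 in the WT libraries and 4897 and 2422 in KO 2 and KO 3. Its groups overlapped because WT 2 was lower than KO 2 (-0.99, SE 0.38, limma adjusted p = 0.137; -0.38 with the length and GC trend removed). Gnl3, the gene of the GTPase nucleostemin, had 3102, 2098 and 2937 in WT and 1818 and 1274 in KO. It did not overlap between groups (-0.81, SE 0.24, limma adjusted p = 0.0939, DESeq2 adjusted p = 0.0229), and remained lower in both KO libraries with the length and GC trend removed (-0.38). Nolc1, a snoRNP chaperone, and Mybbp1a, a nucleolar repressor of transcription, were at 0.18 (SE 0.17) and 0.27 (SE 0.20).

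**Figure D4:**
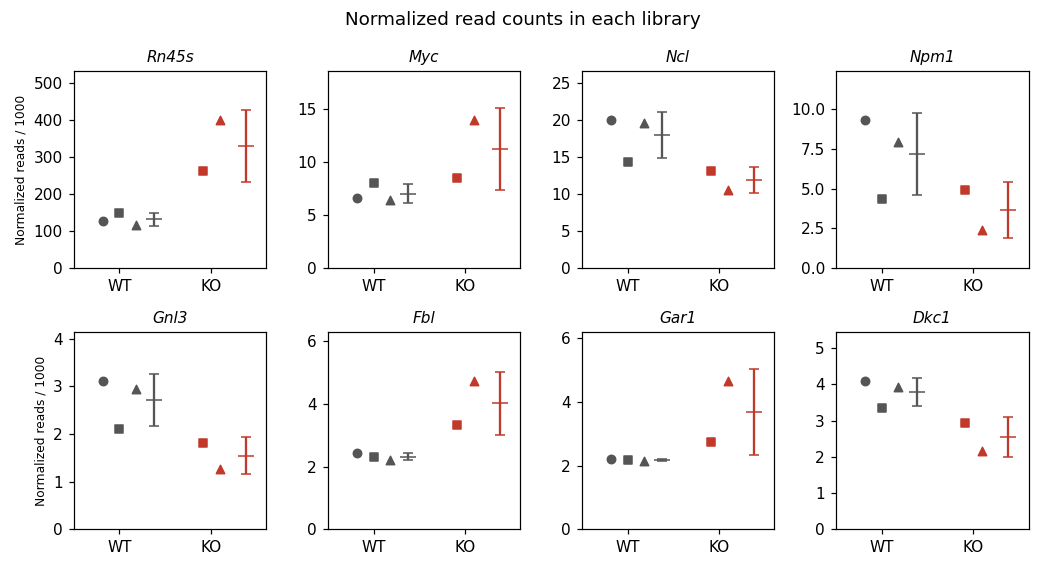
Normalized read counts, divided by 1000, of 8 members in each library (circle, square and triangle for library numbers 1, 2 and 3), with the mean and SD of the 3 WT and the 2 KO libraries beside them. Rn45s, Myc, Fbl and Gar1 are higher in both KO libraries and Ncl, Gnl3 and Dkc1 lower, while for Npm1 WT 2 lies under KO 2.

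The box C/D snoRNP, which methylates rRNA, is built from proteins that act together, but its transcripts did not share a direction. Fbl (chr7:28169710-28179269), the methyltransferase fibrillarin, had 2423, 2305 and 2206 normalized reads in WT 1, WT 2 and WT 3 and 3308 and 4713 in KO 2 and KO 3. The WT values lay close together and both KO values were above them (log2 fold change of 0.77, SE 0.20, limma adjusted p = 0.082, DESeq2 adjusted p = 0.00675), also with the length and GC trend removed (0.33). Nop58, a core scaffold of the particle, had 4407, 2981 and 3954 in WT and 2501 and 2705 in KO, below all WT values (-0.52, SE 0.21, limma adjusted p = 0.148), but at 0.13 with overlap once the length and GC trend was removed. Nop56, the other scaffold, was lower in both KO libraries by little (-0.15, SE 0.16).

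In the box H/ACA snoRNP, which converts uridine to pseudouridine, transcripts again lay on both sides of WT. Dkc1 (chrX:75095854-75109777), the pseudouridine synthase dyskerin, had 4079, 3347 and 3913 normalized reads in WT and 2936 and 2163 in KO 2 and KO 3, all below WT (-0.58, SE 0.20, limma adjusted p = 0.115). Gar1 (chr3:129824912-129831396) had 2200, 2183 and 2147 in WT and 2731 and 4634 in KO, all above WT (0.71, SE 0.23, limma adjusted p = 0.108, DESeq2 adjusted p = 0.0282). With the length and GC trend removed Dkc1 was at -0.08 and Gar1 at 0.23, and both overlapped between groups. Nhp2 was also higher in both KO libraries (0.49, SE 0.18), and Nop10 overlapped (0.09, SE 0.22), whereas with the length and GC trend removed both lay above all WT values, at 0.24 for Nhp2 and 0.41 for Nop10. Ratios of reads within a library do not depend on its scaling. For Gar1 to Dkc1 the ratio was 0.539, 0.652 and 0.549 in WT 1, WT 2 and WT 3, 0.93 in KO 2 and 2.14 in KO 3. For Fbl to Nop58 it was 0.55, 0.773 and 0.558 in WT, 1.32 in KO 2 and 1.74 in KO 3. That both ratios were higher in each KO library restates the values of the single genes, since Gar1 and Fbl lay above and Dkc1 and Nop58 below all WT values. Gar1 and Fbl have 57% and 56.7% GC, and Dkc1 and Nop58 have 43.6% and 41%, as the sequences above illustrate for Gar1 and Dkc1.

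**Figure D5:**
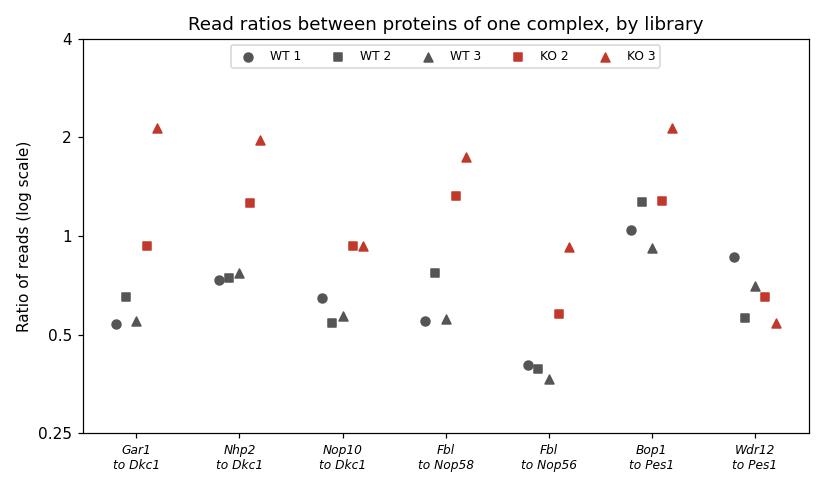
Ratio of reads, on a log scale, between transcripts of proteins that share a complex, with 1 point per library (WT grey, KO red; circle, square and triangle for library numbers 1, 2 and 3). Ratios to Dkc1 and the Fbl ratios lie higher in both KO libraries than in all WT libraries, whereas the Wdr12 to Pes1 ratio overlaps (0.563 to 0.864 in WT, 0.541 to 0.65 in KO).

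The 13 small subunit assembly genes had a median log2 fold change of -0.09, with 3 of 13 higher in both KO libraries (23.1%; 23.9% of all tested genes) and 3 lower (23.1%; 23.2%). Corrected for length and GC content the median was 0.11, with 4 higher (30.8%; background 16.0%) and 2 lower (15.4%; background 18.2%). Rrp9 (chr9:106475963-106485424), the protein of the U3 snoRNP, had 1255, 1396 and 1241 normalized reads in WT and 1831 and 2793 in KO 2 and KO 3. The groups did not overlap (0.80, SE 0.22, limma adjusted p = 0.0879, DESeq2 adjusted p = 0.0112), but with the length and GC trend removed they did, at 0.12. Rrp12, a factor for subunit export, had 1218, 1418 and 1653 in WT and 1911 and 2808 in KO (0.71, SE 0.23, limma adjusted p = 0.106, DESeq2 adjusted p = 0.0358), again without overlap, and 0.28 with overlap once the length and GC trend was removed. Nob1, the nuclease that makes the last cut in the small subunit rRNA, was the third higher gene (0.47, SE 0.18). Utp14a (chrX:48256862-48282453), a component of the early processing complex, lay on the other side, with 850, 664 and 706 in WT and 523 and 342 in KO (-0.80, SE 0.26, limma adjusted p = 0.108, DESeq2 adjusted p = 0.0471). Wdr75, of the subcomplex that couples transcription to processing, had 1409, 1132 and 1282 in WT and 994 and 688 in KO (-0.62, SE 0.23, limma adjusted p = 0.13). Both were below all WT values, also with the length and GC trend removed, at -0.53 for Utp14a and -0.21 for Wdr75. Wdr43, of the same subcomplex, was the third lower gene (-0.21, SE 0.17). The other 7 overlapped between groups, from -0.43 (SE 0.25) for Tsr1 to 0.24 (SE 0.23) for the RNA acetyltransferase Nat10. Among them were the RNA methyltransferase Emg1 (0.01), whose sign turned under TMM and quantile scaling, the helicase Ddx10 (-0.33), and Heatr1 (-0.09), Bysl (-0.01) and Ltv1 (-0.15).

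The 9 large subunit assembly genes had a median of 0.05, with 4 of 9 higher in both KO libraries (23.9% of all tested genes) and 1 lower (23.2%). Corrected for length and GC content the median was 0.07, with 3 higher (33.3%; background 16.0%) and 1 lower (11.1%; background 18.2%). Rrs1, a factor of early large subunit assembly, had 1861, 2208 and 2207 normalized reads in WT and 2602 and 4450 in KO 2 and KO 3. It did not overlap (0.71, SE 0.24, limma adjusted p = 0.117, DESeq2 adjusted p = 0.0369) and was at 0.42, again without overlap, after correction for length and GC content. Bop1 had 2679, 3686 and 2789 in WT and 3843 and 5859 in KO, with KO 2 just above WT 2 (0.65, SE 0.23, limma adjusted p = 0.125), and was at 0.06 with overlap once the length and GC trend was removed. Its protein acts in one complex with those of Pes1 and Wdr12, which were at 0.02 (SE 0.17) and -0.22 (SE 0.21); the sign of Pes1 turned under quantile scaling. The RNA methyltransferase Nop2 (0.42, SE 0.19) and Rrp1 (0.26, SE 0.17) were also higher in both KO libraries, and the helicase Ddx21 (-0.22, SE 0.17) was lower. After correction for length and GC content Nop2 was at 0.08 and Ddx21 at 0.07, both with overlap, and Rrp1 at -0.15 with both KO values below WT. Nip7 (-0.45, SE 0.25) and the helicase Ddx18 (0.05, SE 0.18) overlapped between groups.

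Because MYC binds the E-box CACGTG, the promoters of the members were searched for these letters, which read the same on both strands. RefSeq promoters (GRCm38.p6) were matched for 34 members. In the 250 bases before the start of transcription 2 of 34 held the motif (5.88%; 9.77% of tested genes and 6.86% of all genes in the table). With the 50 bases after the start included it was 7 of 34 (20.6%; 11.6% of tested genes and 8.09% of all). The sites are shown with up to 10 bases on each side, 5′ to 3′ on the strand of the gene and with the motif in capitals.
Rrn3 (chr16:13780474-13780499, plus strand): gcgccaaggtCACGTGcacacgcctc
Rrn3 (chr16:13780641-13780666, plus strand): acgctctgctCACGTGggccgcgtcc
Mybbp1a (chr11:72441357-72441376, plus strand): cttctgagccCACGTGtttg
Wdr43 (chr17:71616222-71616247, plus strand): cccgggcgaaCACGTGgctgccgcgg
Ltv1 (chr10:13193094-13193119, minus strand): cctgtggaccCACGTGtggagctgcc
Tsr1 (chr11:74898094-74898119, plus strand): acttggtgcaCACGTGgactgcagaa
Nop2 (chr6:125131813-125131838, plus strand): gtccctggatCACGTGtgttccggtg
Pes1 (chr11:3963967-3963992, plus strand): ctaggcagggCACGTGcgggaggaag
The sites began 215 and 48 bases before the start in Rrn3 and 60 before it in Nop2, and at base 3 after it in Pes1, 18 in Wdr43, 25 in Tsr1, 29 in Ltv1 and 41 in Mybbp1a. Of these 7 genes, Nop2 was higher in both KO libraries (23.9% of all tested genes were), Wdr43 lower (23.2%), and the other 5 overlapped between groups. With the length and GC trend removed Nop2 was at 0.08 and Wdr43 at 0.23, both with overlap. Ltv1 then lay above all WT values, at 0.20 (background 16.0%). Binding was not measured.

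Other genes of the pathway, from lists of RNA polymerase I, snoRNP, subunit assembly, and RNA exosome and rRNA decay genes that held no member, were read from the same fit. All 130 were tested and had a median log2 fold change of -0.04. Both KO values lay above WT for 41 (31.5%; background 23.9%) and below for 42 (32.3%; background 23.2%), and limma called 0, with 45 (34.6%; background 27.8%) at an unadjusted p under 0.05. edgeR called 0 (2 of all 13661 genes tested), and DESeq2 called 13 higher (10%; background 9.27%) and 17 lower (13.1%; background 9.46%). After correction for length and GC content, 29 of the 123 with a GC content lay above (23.6%; background 16.0%) and 20 below (16.3%; background 18.2%), and 19 (15.4%; background 16.1%) were at an unadjusted p under 0.05. The RNA exosome, which trims rRNA precursors, held both the highest and the lowest log2 fold change of them. Exosc6, a core subunit with 64.9% GC, had 1592, 1787 and 1596 normalized reads in WT and 2954 and 5599 in KO 2 and KO 3 (1.30, SE 0.26, limma adjusted p = 0.0815). Exosc9, a core subunit with 44.5% GC, had 2541, 1612 and 2580 in WT and 1280 and 548 in KO (-1.39, SE 0.36, limma adjusted p = 0.0838). Genes are named here only where the groups did not overlap. With the length and GC trend removed Exosc6 was at 0.24, and Exosc9 at -0.93. As deposited, the next highest among genes without overlap were Imp3 (1.05, and 0.69 with the trend removed), Naf1 (0.91 and 1.09), Exosc5 (0.87 and 0.54) and Gltscr2 (0.85, with no GC content). Naf1 rested on KO 3, with 84 to 111 normalized reads in WT, 113 in KO 2 and 307 in KO 3, and its log2 fold change was 0.20 without KO 3 and 1.63 without KO 2. The next lowest among genes without overlap were Esf1 (-1.10 as deposited and -0.26 with the trend removed), Rpf2 (-1.03 and -0.54), Taf1b (-1.00 and -0.61) and Taf1d (-0.96 and -0.23).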

How the data were processed

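The authors deposited normalized signal, that is read counts divided by a size factor of each library. Their processing notes name STAR, featureCounts, DESeq2 and the mm10 build, with versions and strand setting not given in the sources used here. All values were whole multiples of a step per library, from which 100% were recovered as whole reads (tolerance 0.01). The deposited table of the authors' own comparison (fold changes and p-values) was not used. Genes that reached 10 in 2 or more libraries were compared with limma 3.58.1 (R 4.3.3, trend) on log2(value + 1) with Benjamini-Hochberg adjustment over 13661 genes, two-sided and called under 0.05, and fold changes are on that scale. edgeR 4.0.16 (quasi-likelihood) and DESeq2 1.42.0 were run on the recovered reads as alternatives. The code was tested on simulated data. Gene positions are from GENCODE M21, matched by symbol. Per-library values are given by rule for Rn45s, Myc, Ncl, Npm1, Fbl, the largest change of each role and members beyond all WT values by 0.5 or more. For other genes the 5 highest and 5 lowest among those without overlap between groups are named. The members and lists were chosen with earlier results of these data known. Some marker genes of the lists are not reported here.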

Additional observations from a re-analysis of the deposited data

How the results depend on the processing

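Of the 41 members with a value under all 16 alternatives, 23 kept their direction throughout, and Rn45s did so under the 14 that gave it a value. The number of members called stayed at 0 except with DESeq2 (11) and when libraries were left out (0 to 16, the latter without KO 2). Members above all WT values numbered 14 to 19 and members below them 10 to 18 with a library left out, where 26.4% to 40% of all tested genes lay above and 26.1% to 38.3% below, and 5 members lay below with the length and GC trend removed. The members' median log2 fold change was 0.02 with TMM scaling, 0.02 with quantile scaling, 0.01 with edgeR, 0.07 with the trend removed, and 0.02 to 0.06 with a library left out. For other ribosome biogenesis genes the median was 0.01 with the trend removed and -0.06 to 0.02 with a library left out.

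The labels share replicate numbers 2 and 3 between groups but do not tie them to a common animal or day, and deviations of same-numbered libraries correlated at -0.06 and -0.18. With the replicate block, which uses only the numbers, 0 members were called, the members' median was 0.06 and that of the other genes 0.02 (0.02 with the trend also removed).

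Directions turned with the trend removed for Ubtf -0.038, Rrn3 0.053, Nop58 0.13, Wdr43 0.23, Heatr1 0.11, Emg1 -0.034, Ddx10 0.23, Ltv1 0.20, Wdr12 0.48, Rrp1 -0.15 and Ddx21 0.065, and with the replicate block and the trend removed together for Ubtf -0.078, Mybbp1a -0.004, Nop58 0.23, Wdr43 0.18, Heatr1 0.10, Nat10 -0.095, Ddx10 0.23, Ltv1 0.22, Pes1 -0.048, Wdr12 0.54, Rrp1 -0.11 and Ddx21 0.008. They also turned with TMM scaling for Emg1 -0.009, with quantile scaling for Emg1 -0.028 and Pes1 -0.029, with array weights for Pes1 -0.011, with edgeR for Emg1 -0.004 and Pes1 -0.002 and with the replicate block alone for Pes1 -0.050. With a library left out the log2 fold change spanned -0.050 to 0.080 for Pes1, -0.29 to 0.12 for Polr1a, -0.13 to 0.31 for Nop10, -0.25 to 0.27 for Emg1, -0.18 to 0.16 for Bysl, -0.21 to 0.39 for Polr1b, -0.001 to 0.55 for Mybbp1a, -0.35 to 0.037 for Ltv1. The log2 fold change of Syncrip was negative throughout. It was -1.47 (limma adjusted p = 0.14) with the trend removed, its adjusted p was 0.0594 with array weights and 0.0503 with no filter, and it ranged from 0.00773 to 0.21 when a library was left out. The cause was not tested. Only 2 KO libraries, of unequal depth, limit all of these values, and no member was near the floor of counting.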

Other observations

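MYC is one member of a network of dimerising factors, of which 11 of 12 listed genes were tested. Their median log2 fold change was 0.09, with 3 higher in both KO libraries than in all WT (27.3%; 23.9% of all tested genes) and 3 lower (27.3%; 23.2% of all tested genes). The higher genes were Mxd3 (0.37, SE 0.21), Mxd4 (0.77, SE 0.30) and Mnt (0.57, SE 0.25), and the lower ones Mga (-0.95, SE 0.27), Mlx (-0.66, SE 0.30) and Mxd1 (-0.60, SE 0.21). With the length and GC trend removed 1 lay above all WT values (9.09%; 16.0% of all genes) and 2 below (18.2%; 18.2% of all genes). Mxd3 was then at -0.11 and Mnt at -0.14, so that both turned direction, while Mxd4 was at 0.37, Mga at -0.40, Mlx at -0.66 and Mxd1 at -0.63. Mycn varied too much within the groups to separate them, with 1757, 1332 and 516 normalized reads in WT 1, WT 2 and WT 3 and 1379 and 4412 in KO 2 and KO 3. Max, the partner of MYC, was at -0.10 (SE 0.25). limma and edgeR called none of the 11 (1 and 2 of all 13661 genes tested), with 4 (36.4%; 27.8% of all tested genes) at an unadjusted limma p under 0.05. DESeq2 called 1, Mga, lower (9.09%; 9.46% of the 12170 genes with a DESeq2 adjusted p).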
